A study of Mus musculus with 18 samples.

Results

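The interferon-stimulated genes examined here are a set of 37 genes, 29 of them usually counted as targets of type I interferon and 8 of them guanylate-binding proteins (Gbp) or immunity-related GTPases (Irg). A gene entered when the array had a feature carrying its symbol alone, and where it had several such features the one with the highest mean over the 18 arrays was taken. By that rule 32 of the 37 were measured, among 19938 genes in all, namely 27 type I genes and the 5 genes Gbp3, Gbp5, Gbp7, Irgm1 and Iigp1. Isg15, Gbp2, Igtp and Irgm2 lay only on features shared with other symbols, Ifi44 had no feature, and these 5 genes are not analysed here.

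The study measured gene expression in alveolar type II cells, the surfactant-making cells of the lung epithelium, isolated from mice aged 7 to 8 weeks. Control mice were littermates labelled CEBP/a(flx/flx) that lacked the rtTA or the Cre transgene, and Cebpa-deleted mice were labelled CCSP/rtTA/CEBPa(flx/flx), a label that does not name the Cre transgene. Cebpa encodes C/EBPα, a transcription factor of the lung epithelium. The series design places the deletion in Clara cells from early gestation and in type II cells from shortly before birth, so the deletion is not restricted to type II cells and precedes the measurement by weeks. RNA was taken at 0, 2 and 24 h of hyperoxia, which with both genotypes made 6 groups of 3 arrays. The series design is the source for hyperoxia at 2 and 24 h, whereas the description of every sample says air. Nothing in the labels says that arrays of a group came from separate mice, so the p-values measure only the spread between these samples, which may be technical.

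Interferons are secreted proteins that switch on antiviral and antimicrobial genes. Type I interferons act through the receptor IFNAR on genes that carry the interferon-stimulated response element (ISRE). Interferon γ acts through a receptor of its own on genes that carry the gamma-activated site (GAS). Many genes answer to both, and the Gbp and Irg GTPases, which attack the vacuoles of intracellular microbes, are among the strongest interferon γ targets known.

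The upstream sequences of 7 genes that rose on average are shown as examples with and without these elements. Each line gives the 250 bases before the RefSeq transcription start on the gene's own strand, from assembly GRCm38.p6, in lower case. Capitals mark every match to the ISRE core (GAAA, any 2 bases, then GAAA, on either strand) or to the GAS core TTCNNNGAA, which reads the same on both strands. The first 4 windows belong to Gbp and Irg genes, 3 of them close together on chromosome 3, and the last 3 to the type I genes Rsad2, Ifit1 and Oasl2.
Gbp3, chr3:142559794-142560043, plus strand: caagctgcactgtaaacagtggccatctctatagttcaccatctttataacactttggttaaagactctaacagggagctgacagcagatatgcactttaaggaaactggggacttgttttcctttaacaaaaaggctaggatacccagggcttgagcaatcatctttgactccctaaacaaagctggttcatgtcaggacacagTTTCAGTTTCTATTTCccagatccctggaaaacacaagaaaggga
Gbp5, chr3:142496684-142496933, plus strand: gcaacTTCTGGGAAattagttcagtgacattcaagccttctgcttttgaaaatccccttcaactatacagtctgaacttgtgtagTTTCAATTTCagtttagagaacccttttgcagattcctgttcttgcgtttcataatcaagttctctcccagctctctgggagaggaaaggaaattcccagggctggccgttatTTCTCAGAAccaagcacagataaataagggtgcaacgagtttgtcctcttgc
Gbp7, chr3:142530086-142530335, plus strand: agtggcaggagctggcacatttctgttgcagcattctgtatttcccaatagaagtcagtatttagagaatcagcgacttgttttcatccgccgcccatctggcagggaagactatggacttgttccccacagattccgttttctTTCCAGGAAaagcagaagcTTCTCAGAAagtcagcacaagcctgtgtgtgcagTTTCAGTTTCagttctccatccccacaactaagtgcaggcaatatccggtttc
Irgm1, chr11:48871421-48871670, minus strand: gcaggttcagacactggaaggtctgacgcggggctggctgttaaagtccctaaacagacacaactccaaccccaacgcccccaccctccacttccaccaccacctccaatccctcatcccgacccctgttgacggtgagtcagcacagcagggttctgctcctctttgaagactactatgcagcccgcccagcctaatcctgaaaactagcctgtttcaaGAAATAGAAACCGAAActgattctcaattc
Rsad2, chr12:26456453-26456702, minus strand: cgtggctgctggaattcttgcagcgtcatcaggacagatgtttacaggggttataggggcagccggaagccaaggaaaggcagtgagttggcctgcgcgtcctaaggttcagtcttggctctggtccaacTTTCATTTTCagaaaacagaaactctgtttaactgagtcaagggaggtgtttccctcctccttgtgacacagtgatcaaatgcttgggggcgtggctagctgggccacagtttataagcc
Ifit1, chr19:34640639-34640888, plus strand: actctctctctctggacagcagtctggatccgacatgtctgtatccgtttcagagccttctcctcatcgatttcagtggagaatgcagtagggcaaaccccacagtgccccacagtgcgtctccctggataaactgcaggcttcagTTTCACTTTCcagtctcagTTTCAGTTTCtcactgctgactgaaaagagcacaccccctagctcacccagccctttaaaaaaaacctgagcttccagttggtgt
Oasl2, chr5:114896684-114896933, plus strand: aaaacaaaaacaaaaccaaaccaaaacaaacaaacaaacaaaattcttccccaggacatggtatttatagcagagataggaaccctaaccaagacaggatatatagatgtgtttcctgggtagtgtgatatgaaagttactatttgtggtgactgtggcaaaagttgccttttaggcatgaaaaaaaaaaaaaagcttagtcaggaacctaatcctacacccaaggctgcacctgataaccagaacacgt

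The ISRE cores lay close to the start in Gbp3 (first base at -45), Gbp7 (-53) and Irgm1 (-30), and farther away in Gbp5 (-165). Gbp5 and Gbp7 each also held 2 GAS cores, which the other windows shown did not. Oasl2, which had the largest average rise of the type I genes, held neither core, nor did Oasl1 and Xaf1, which also rose. In Gbp3 and Irgm1 the capitals cover 2 ISRE cores that overlap each other. Gbp3 has a second annotated start, whose window (chr3:142560106-142560355) held neither core. RefSeq windows were found for 24 of the 32 measured genes. An ISRE core was present in at least 1 window of 11 of these 24 genes (45.8%) and a GAS core in 7 (29.2%), and per window the shares were 36.7% and 23.3% of 30. Among all 32851 RefSeq windows of the same length 2.98% held the ISRE core and 7.02% the GAS core. The ISRE core was found in 4 of 4 Gbp and Irg genes and in 7 of 20 type I genes, the GAS core in 2 of 4 and in 5 of 20. A match is a run of letters and does not show that a factor binds there.

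Values below are RMA expression on the log2 scale, so a difference between genotypes is the log2 of a ratio. A gene was called when its adjusted p in the limma fit (Benjamini-Hochberg over all 19938 genes) was below 0.05. Cebpa itself differed by -0.43 at 0 h (adjusted p = 0.429), it fell by 1.10 at 2 h (adjusted p = 0.00461), and it fell by 1.83 at 24 h (adjusted p = 8.19e-06). The type II cell markers were bright on every array, with a mean over 11 genes between 11.35 and 13.04. The 6 arrays at 0 h spanned a wider range of values than the 12 later ones (interquartile range of all genes 2.89 to 3.062 against 1.82 to 2.55). The sources used here do not give which arrays were normalized together. The Cebpa-deleted 24 h arrays had the narrowest range (1.82 to 2.129, against 2.441 to 2.52 in 24 h controls).

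Averaged over the 3 times, all 5 Gbp and Irg genes rose in Cebpa-deleted cells, by 0.34 to 1.05. At the single times 1, 0 and 4 of the 5 were called, and Irgm1 overlapped the controls at 0 and 24 h. Among the 27 type I genes 6 rose on that average and 0 fell, by 0.15 to 0.41, led by Oasl2 and Ifit1. That made 11 of 32 genes called higher, beside 7.13% of all genes higher, and 0 of 32 called lower, beside 9.75% lower (16.9% either way). Under median centring or a second quantile normalization 1 of 32 was called lower. The median difference was 0.73 for the Gbp and Irg genes, 0.10 for the type I genes (0.12 without Irf1, which also answers to interferon γ) and 0.01 for all genes. The difference between both groups of genes was not tested. The mean of 16 endothelial marker genes was higher on the Cebpa-deleted arrays at each time as well (8.00 to 8.77 over all control arrays, 8.61 to 9.52 over all Cebpa-deleted arrays), and its part in these differences was not tested. In bulk RNA, fewer cells of a type and less RNA per cell cannot be told apart, and the same holds for a higher level.

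**Figure D1:**
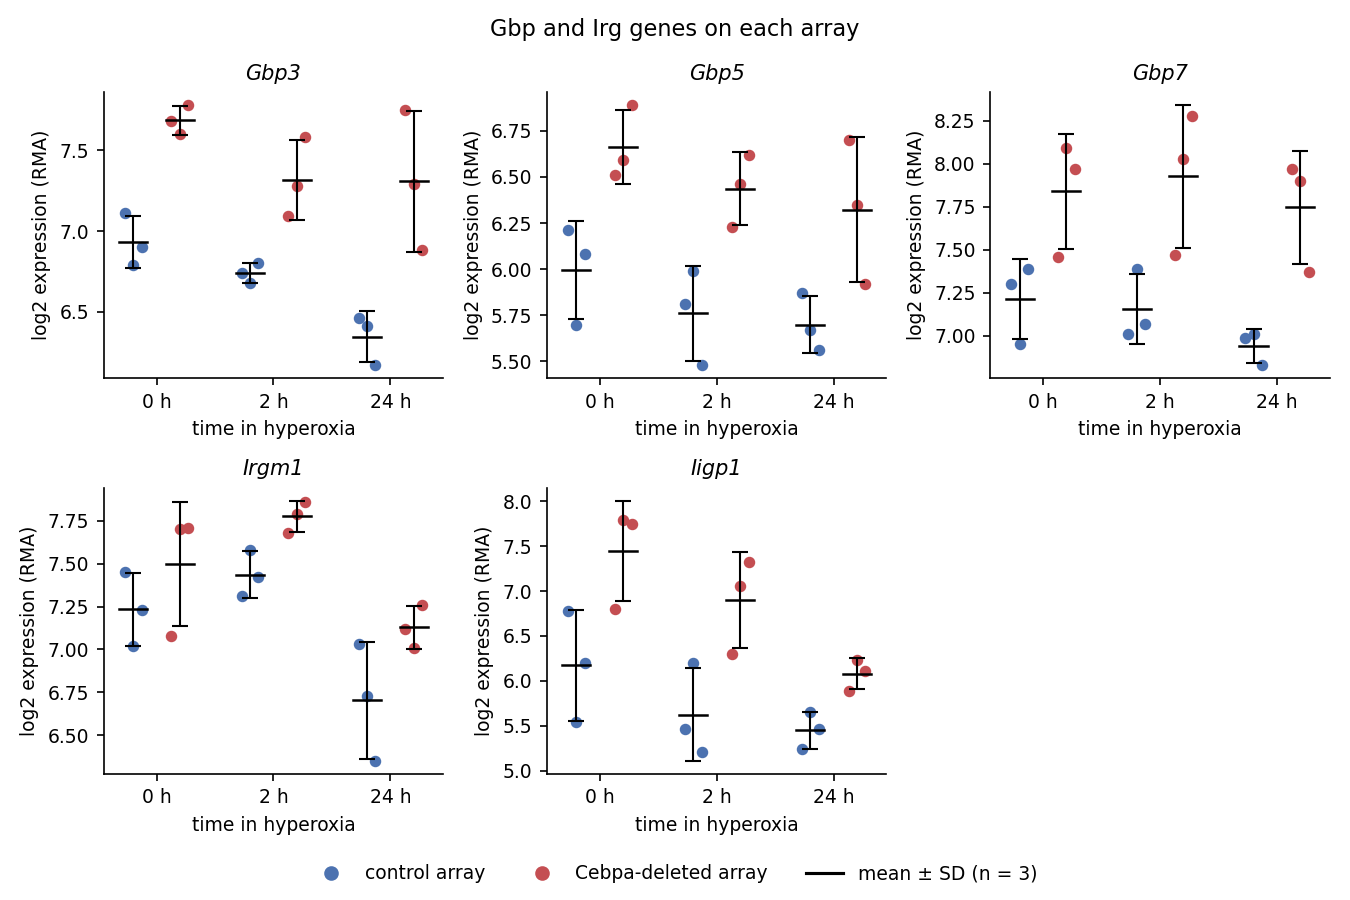
Log2 expression (RMA) of Gbp3, Gbp5, Gbp7, Irgm1 and Iigp1 on each of the 18 arrays, by time in hyperoxia in hours, with control arrays in blue, Cebpa-deleted arrays in red and bars for the mean ± SD of 3 arrays. Gbp3, Gbp5 and Gbp7 separate the genotypes at each time, while Irgm1 overlaps at 0 and 24 h.

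Gbp3, a large GTPase of the guanylate-binding family, read 7.11, 6.79 and 6.90 in control cells before hyperoxia and 7.68, 7.60 and 7.78 after Cebpa deletion. At 2 h it read 6.74, 6.68 and 6.80 against 7.09, 7.28 and 7.58. At 24 h it read 6.46, 6.41 and 6.17 against 7.75, 7.29 and 6.88. At each time the lowest Cebpa-deleted array was above the highest control, and at 24 h the Cebpa-deleted arrays were more spread out than the controls. Gbp3 rose by 0.75 at 0 h (SE 0.17, adjusted p = 0.0337) and by 0.96 at 24 h (SE 0.17, adjusted p = 0.00044), and differed by 0.57 at 2 h (adjusted p = 0.106). Averaged over times it rose by 0.76 (SE 0.10, adjusted p = 4.69e-05), the smallest p of the 32 genes. It was the 1 gene of 32 called at 0 h, beside 0.677% of all genes called higher and 0.858% either way. That 0 h call was kept in 1 of 6 leave-one-out fits (the fit lacking control replicate 1), with differences between 0.68 and 0.84 and adjusted p between 0.084 and 0.174 in the other 5. After a second quantile normalization the 0 h difference was 0.59 and was not called (limma adjusted p = 0.367). The 24 h call was kept in 6 of 6, but with the interquartile range of each array in the fit the 24 h difference was 0.42 (adjusted p = 0.752). The Gbp genes are close paralogs, and how far a probe set of 1 also binds RNA of another was not tested.

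Gbp5, a family member that promotes inflammasome assembly, read 6.21, 5.70 and 6.08 in controls at 0 h and 6.51, 6.59 and 6.89 after Cebpa deletion. At 2 h the arrays read 5.81, 5.99 and 5.48 against 6.23, 6.46 and 6.62, and at 24 h 5.87, 5.67 and 5.56 against 6.70, 6.35 and 5.92. Again no Cebpa-deleted array fell within the controls of its time. Gbp5 rose by 0.62 at 24 h (SE 0.18, adjusted p = 0.0103) and on average by 0.65 (SE 0.11, adjusted p = 0.000413). The values at 0 and 2 h were 0.66 and 0.67, nearly the same size, with adjusted p of 0.116 and 0.0748. The 24 h difference was 0.43 without Cebpa-deleted replicate 1 (adjusted p = 0.072), 0.41 after a second quantile normalization (adjusted p = 0.0728) and 0.07 with the array range in the fit (adjusted p = 0.984).

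Gbp7, which acts in the defence of phagocytic cells, read 7.30, 6.95 and 7.39 in controls at 0 h and 7.46, 8.09 and 7.97 after Cebpa deletion. At 2 h it read 7.01, 7.39 and 7.07 against 7.47, 8.03 and 8.28, and at 24 h 6.99, 7.01 and 6.83 against 7.97, 7.90 and 7.37. The genotypes did not overlap at any time, although 1 Cebpa-deleted array came near the controls at 0 and at 2 h. Gbp7 rose by 0.80 at 24 h (SE 0.20, adjusted p = 0.0045) and on average by 0.73 (SE 0.12, adjusted p = 0.000382), while 0.62 at 0 h and 0.77 at 2 h did not pass (adjusted p = 0.22 and 0.0657). With the array range in the fit the 24 h difference was 0.26 (adjusted p = 0.921).

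Iigp1, an Irg GTPase that loads onto parasite vacuoles, had the widest spread of these 5 genes at 0 and 2 h. Its control arrays read 6.78, 5.54 and 6.20 at 0 h, 5.46, 6.20 and 5.21 at 2 h, and 5.24, 5.65 and 5.46 at 24 h. Its Cebpa-deleted arrays read 6.80, 7.79 and 7.75, then 6.30, 7.06 and 7.33, then 5.89, 6.23 and 6.11. The genotypes did not overlap at any time, but the lowest Cebpa-deleted array at 0 h was next to the highest control. The differences of 1.27 at 0 h and 1.27 at 2 h, with 95% intervals of 0.60 to 1.93, and of 0.63 at 24 h did not pass (adjusted p = 0.0707, 0.0532 and 0.104), and the average rose by 1.05 (SE 0.18, adjusted p = 0.000779).

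Irgm1, a regulatory Irg GTPase that keeps the others off the cell's own membranes, differed least of the 5. It read 7.45, 7.02 and 7.23 against 7.08, 7.70 and 7.71 at 0 h and 7.31, 7.58 and 7.42 against 7.68, 7.79 and 7.86 at 2 h. At 24 h it read 7.03, 6.73 and 6.35 in controls and 7.12, 7.01 and 7.26 after Cebpa deletion. The groups were apart at 2 h and overlapped at 0 and 24 h. Irgm1 rose by 0.43 at 24 h (SE 0.17, adjusted p = 0.0435) and on average by 0.34 (SE 0.10, adjusted p = 0.0233). The 24 h call was kept in 1 of 6 fits without an array, that without control replicate 1, with adjusted p between 0.0621 and 0.232 in the others, where without control replicate 3 the difference was 0.25. It was 0.40 after a second quantile normalization (adjusted p = 0.0714) and 0.71 with the array range in the fit (adjusted p = 0.57). The average was not called without Cebpa-deleted replicate 3 at 0 h (0.31, adjusted p = 0.0507). None of the 5 genotype differences changed between 0 and 24 h or between 2 and 24 h past the threshold (interaction adjusted p from 0.196 to 0.931).

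By time, the Gbp and Irg genes with complete separation upward (the lowest of 3 Cebpa-deleted arrays above the highest of 3 controls) numbered 4 of 5 at 0 h, 5 of 5 at 2 h and 4 of 5 at 24 h. Among all genes such a separation upward was found in 8.49%, 6.95% and 31.7% at those times. For type I genes the counts were 1 of 27 (Bst2), 7 of 27 and 8 of 27, so the share at 24 h was close to that of all genes. Downward, 0 of 32 genes separated at 0 h, where 8.77% of all genes did, 0 at 2 h (5.56%) and 4 at 24 h (Isg20, Mx1, Ifih1 and Trim25; 30.4%). Called either way were 1 of 5 Gbp and Irg genes and 0 of 27 type I genes at 0 h, beside 0.858% of all genes. The counts were 0 and 3 at 2 h (1.4% of all genes) and 4 and 7 at 24 h (50.7% of all genes).

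**Figure D2:**
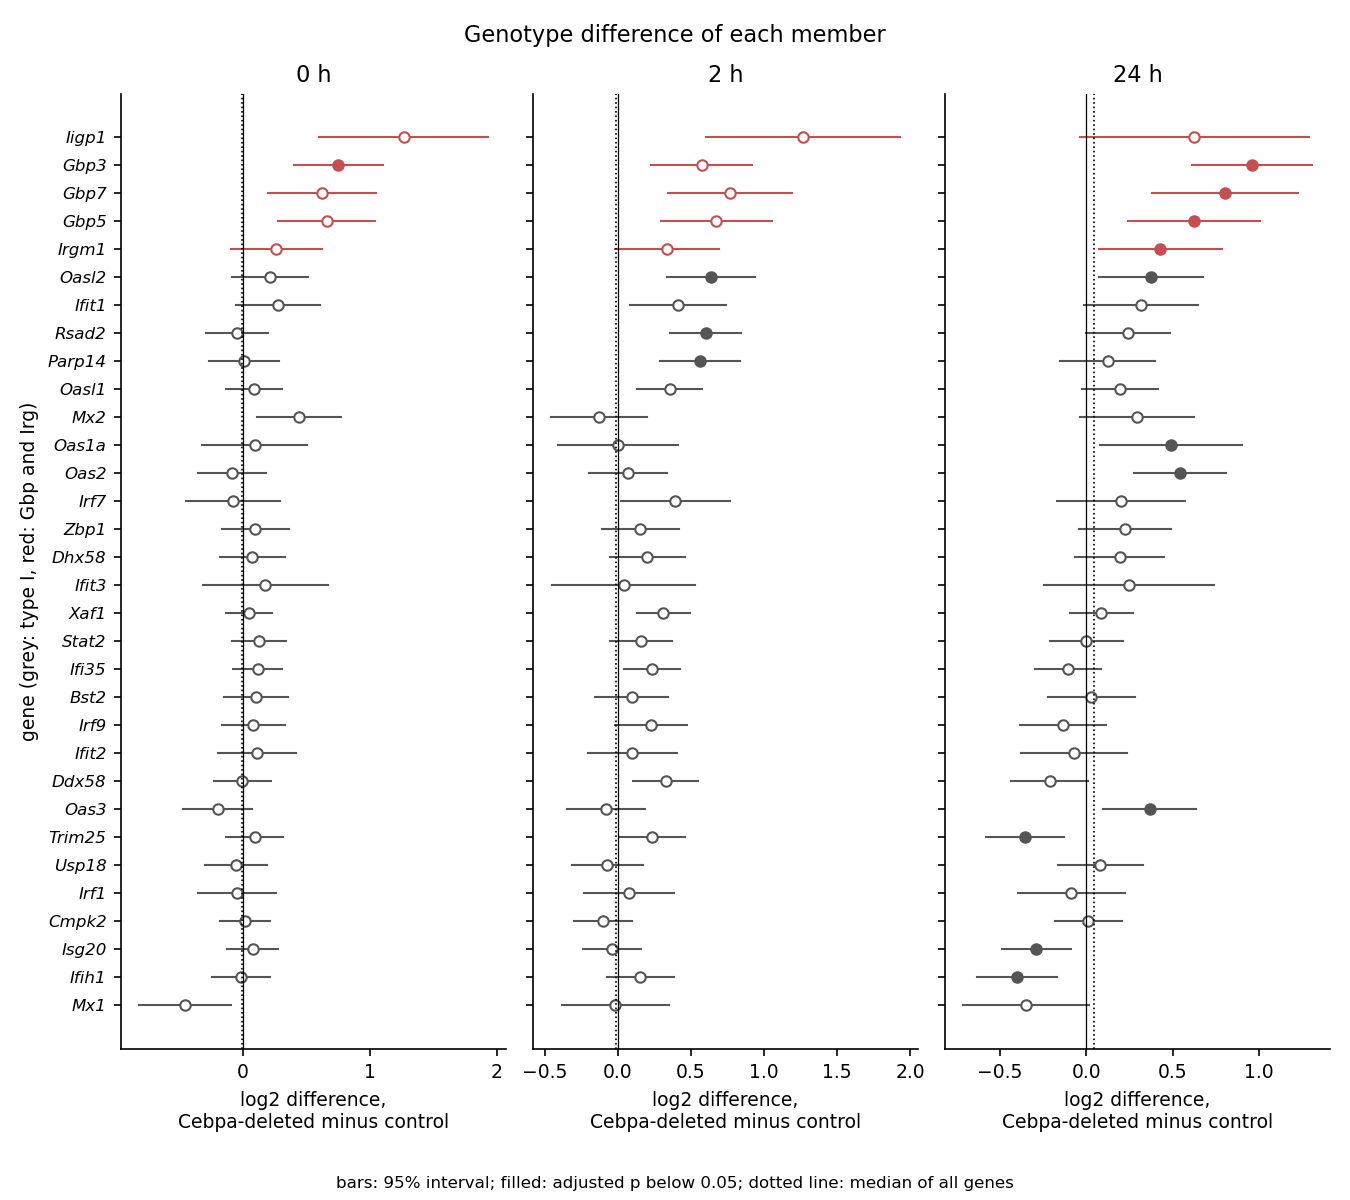
Difference in log2 expression, Cebpa-deleted minus control, of the 32 measured genes at 0, 2 and 24 h, each point with its 95% interval, filled where the adjusted p was below 0.05 and with Gbp and Irg genes in red; the dotted line is the median of all genes. Genes are ordered by average difference within each of the 2 groups, and the Gbp and Irg group was placed at the top. The 5 Gbp and Irg genes lie right of 0 at each time, while the type I genes scatter on both sides, with medians of 0.08, 0.15 and 0.09.

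Before hyperoxia 0 of 27 type I genes were called by limma. Their differences ran from -0.45 (Mx1) to 0.44 (Mx2), 2 dynamin-like GTPases of opposite sign, and at an unadjusted p below 0.05 1 was higher and 1 lower. Mx1 read 6.21, 6.07 and 6.12 in controls and 5.62, 6.11 and 5.31 in Cebpa-deleted cells, and Mx2 read 4.45, 5.11 and 4.38 against 5.23, 4.97 and 5.07. In both genes 1 array of a group fell within the other group.

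At 2 h 3 type I genes rose, Rsad2, Oasl2 and Parp14, which were 3 of all 32 genes, beside 1.2% of all genes higher and 1.4% either way. Rsad2, which encodes the antiviral enzyme viperin, read 6.69, 6.37 and 6.28 in controls and 6.90, 7.14 and 7.10 in Cebpa-deleted cells, a rise of 0.60 (SE 0.12, adjusted p = 0.0117). Oasl2, an oligoadenylate synthetase-like protein, read 7.15, 7.16 and 7.12 against 7.38, 7.81 and 8.15 and rose by 0.64 (SE 0.14, adjusted p = 0.0296). Parp14, an ADP-ribosyltransferase, read 7.50, 7.82 and 7.59 against 7.96, 8.38 and 8.26 and rose by 0.56 (SE 0.13, adjusted p = 0.0357). In each the groups were apart, and Oasl2 was even among controls but spread in Cebpa-deleted cells. At 0 h the same 3 genes had differences of -0.04, 0.22 and 0.01. In controls Rsad2 and Parp14 fell from 0 to 2 h, by 0.66 and 0.60. In Cebpa-deleted cells their 2 h means were 7.05 and 8.20 against 7.06 and 8.24 at 0 h. Whether the change from 0 to 2 h differed between genotypes was not tested, and the 0 h arrays had the wider range of values.

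The 2 h calls rested on few arrays. When 1 array was left out in turn, the calls of Rsad2, Oasl2 and Parp14 were kept in 3, 1 and 2 of 6 fits, with adjusted p up to 0.107, 0.147 and 0.238. The count was 0 without control replicate 3 or Cebpa-deleted replicate 3, 1 without control replicate 1 or Cebpa-deleted replicate 4, 2 without control replicate 2, and 10 without Cebpa-deleted replicate 2. The last had the highest Cebpa level of its group (9.98, against 8.96 and 9.31), whose part was not tested. In a limma fit of the 6 arrays at 2 h alone 0 of 32 genes were called, with 13 higher at an unadjusted p below 0.05, while the fit of all arrays had 14.

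**Figure D3:**
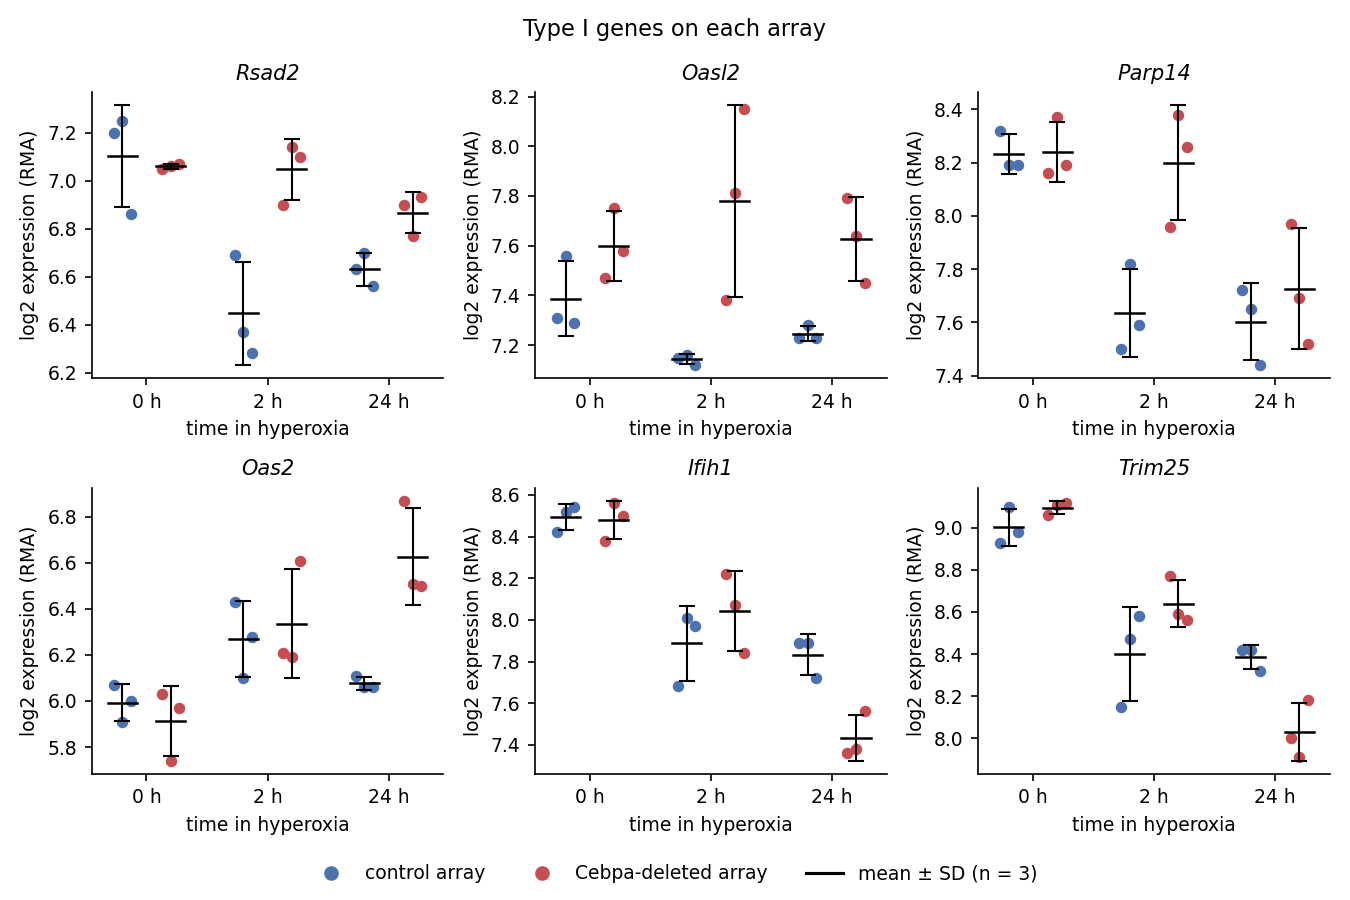
Log2 expression (RMA) of Rsad2, Oasl2, Parp14, Oas2, Ifih1 and Trim25 on each array, by time in hyperoxia in hours, with control arrays in blue, Cebpa-deleted arrays in red and bars for the mean ± SD of 3 arrays. Rsad2, Oasl2 and Parp14 separate at 2 h, and at 24 h Oas2 lies higher and Ifih1 and Trim25 lie lower in Cebpa-deleted cells.

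At 24 h the oligoadenylate synthetases, enzymes that sense double-stranded RNA and activate RNase L, rose in 4 of 5 measured members including the related Oasl2, beside 24.3% of all genes. Oas1b and Oas1c, which were measured in the wider list of interferon-induced genes, are not counted here. Oas1a, Oas2 and Oas3 had mean levels of 6.619, 6.202 and 6.257, in the lower range of levels (up to 7.028), where the median difference of all genes was 0.25. Oas2 read 6.11, 6.06 and 6.06 in controls and 6.87, 6.51 and 6.50 in Cebpa-deleted cells, and rose by 0.54 (SE 0.13, adjusted p = 0.00294). Oas1a read 6.41, 6.70 and 6.42 against 7.22, 6.93 and 6.84 (0.49, SE 0.20, adjusted p = 0.0451). Oas3 read 6.28, 6.06 and 6.04 against 6.55, 6.66 and 6.28 (0.37, SE 0.13, adjusted p = 0.0247). Oas2 and Oas1a separated the groups, and in Oas3 the lowest Cebpa-deleted array met the highest control. Oasl2 read 7.23, 7.28 and 7.23 against 7.79, 7.64 and 7.45 (0.38, SE 0.14, adjusted p = 0.0366). Oasl1, which dampens Irf7 translation, differed by 0.19 and was not called. The Oas2 call was kept in 6 of 6 fits without an array, those of Oas1a and Oas3 in 2 of 6 (adjusted p up to 0.172 and 0.121) and that of Oasl2 in 1 of 6, without Cebpa-deleted replicate 4 (adjusted p up to 0.145 in the others).

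In the same comparison 3 type I genes fell. Ifih1, which encodes the RNA sensor MDA5, read 7.89, 7.89 and 7.72 in controls and 7.36, 7.38 and 7.56 in Cebpa-deleted cells (-0.40, SE 0.11, adjusted p = 0.00721). Trim25, a ubiquitin and ISG15 ligase that activates RIG-I, read 8.42, 8.42 and 8.32 against 8.00, 7.91 and 8.18 (-0.36, SE 0.11, adjusted p = 0.0122). Isg20, an exonuclease, read 8.89, 8.69 and 8.92 against 8.57, 8.40 and 8.66 (-0.29, SE 0.09, adjusted p = 0.0183). In all 3 the highest Cebpa-deleted array was below the lowest control, for Isg20 by little. The Ifih1 call was kept in 6 of 6 fits without an array and that of Isg20 in 3 of 6 (adjusted p up to 0.102). That of Trim25 was lost without Cebpa-deleted replicate 2 (-0.29, adjusted p = 0.0652).

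With the 4 Gbp and Irg genes, 8 of 32 genes were higher and 3 lower at 24 h, and centring the arrays on their medians gave 4 and 4. Of all genes 24.3% were called higher and 26.4% lower (50.7% either way), so the members' share of calls was below that of all genes. The direction also went with the level of a gene. Of all genes, those with a mean level up to 7.028 had a median difference of 0.25 and those above it of -0.26, while the corresponding medians were 0.27 for 14 members and 0.05 for 18 members. Oas1a, Oas2, Oas3 and Gbp5 lay in the first class, and Ifih1, Trim25 and Isg20 in the second, as did Gbp3, Gbp7, Irgm1 and Oasl2, which rose. Those that rose lay nearer the cut (mean levels 7.054, 7.472, 7.297 and 7.464) than Ifih1, Trim25 and Isg20 (8.028, 8.592 and 9.147). Whether they differed from other genes of their own level was not tested. When limma was given each array's interquartile range as a covariate, 0 of 32 genes (2 higher at an unadjusted p below 0.05) and 4 of all genes were called at 24 h. The part of the array range in these calls was not tested further.

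The remaining members gave no call by genotype at a single time. The Ifit genes encode proteins that bind viral RNA, and of them Ifit1 rose on average by 0.33 (SE 0.09, adjusted p = 0.018), with 0.28, 0.41 and 0.31 at the 3 times, while Ifit2 and Ifit3 averaged 0.05 and 0.16. Oasl1 rose on average by 0.21 (SE 0.06, adjusted p = 0.0234) and Xaf1, a promoter of apoptosis, by 0.15 (SE 0.05, adjusted p = 0.0481). Rsad2, Oasl2 and Parp14 averaged 0.27 (adjusted p = 0.0115), 0.41 (adjusted p = 0.00261) and 0.23 (adjusted p = 0.0412), and all were called. Leaving out each array in turn, Ifit1, Rsad2, Oasl2, Gbp3, Gbp5, Gbp7 and Iigp1 were called in 18 of 18 fits and Oasl1 in 16. Oasl1 was lost without Cebpa-deleted replicate 3 at 2 h or replicate 1 at 24 h (adjusted p up to 0.0515). Parp14 was called in 6 and Xaf1 in 3 of 18 (adjusted p up to 0.094 and 0.105). None of Ifit1, Rsad2, Oasl2, Oasl1, Parp14 and Xaf1 kept its average call once each array's interquartile range entered the limma fit. Their average differences in that fit ran from 0.12 (Xaf1) to 0.32 (Ifit1), with adjusted p from 0.108 (Oasl2) to 0.400 (Parp14). Gbp3, Gbp5, Gbp7 and Iigp1 kept their average calls there.

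The 4 member transcription factors Irf1, Irf7, Irf9 and Stat2 gave no genotype call at any time or on average. They had average differences of -0.02, 0.17, 0.06 and 0.10. For Irf1 the 95% interval of the average was -0.20 to 0.16 and for Stat2 -0.03 to 0.22. Usp18, which removes ISG15 from proteins and blocks the receptor, averaged -0.01 (-0.15 to 0.13), and Cmpk2, a mitochondrial nucleotide kinase, -0.02 (-0.14 to 0.09). Ddx58 and Dhx58, RNA sensors related to Ifih1, averaged 0.04 and 0.16. Bst2 (tetherin), Zbp1, a sensor of Z-form nucleic acids, and Ifi35 averaged 0.08, 0.16 and 0.08, and Mx1 and Mx2 -0.27 and 0.20.

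For 5 type I genes the genotype difference itself differed between times. Oas2 and Oas3 had a higher difference at 24 h than at 0 h, by 0.62 (SE 0.18, adjusted p = 0.0336) and 0.56 (SE 0.18, adjusted p = 0.0462), beside 5.46% of all genes with such a change upward and 8.88% downward (14.3% either way). At 0 h their differences had been -0.08 and -0.20. Trim25, Ifih1 and Ddx58 had a lower difference at 24 h than at 2 h, by -0.59 (adjusted p = 0.0122), -0.55 (adjusted p = 0.0174) and -0.54 (adjusted p = 0.017), beside 16.5% of all genes downward (30.8% either way). Ddx58, which encodes RIG-I, read 8.24, 8.39 and 8.44 against 8.85, 8.68 and 8.53 at 2 h, and 8.41, 8.34 and 8.06 against 8.10, 8.02 and 8.04 at 24 h. At 2 h the Cebpa-deleted arrays of Ddx58 were all higher, and at 24 h the highest of them overlapped the lowest control. Without control replicate 1 at 2 h Ddx58 and Ifih1 were not called (adjusted p = 0.0511 and 0.0547), and Oas2 and Oas3 were each called in 3 of 12 fits without an array. With the array range as a covariate none of the 5 was called (adjusted p from 0.772 to 0.999).

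Over time in hyperoxia the members were called at shares that mostly lay near or below those of all genes. In controls 13 of 32 genes fell from 0 to 2 h and 5 rose, beside 39.4% and 30.7% of all genes (70.1% either way). From 0 to 24 h 15 fell and 2 rose, beside 34.6% and 25.3% (59.9%). In Cebpa-deleted cells 8 fell and 6 rose from 0 to 2 h, beside 36.2% and 26.9% (63.1%), and 13 fell and 5 rose from 0 to 24 h, beside 41.5% and 36% (77.6%). After a second quantile normalization 7 rose and 2 fell in Cebpa-deleted cells from 0 to 2 h, and the median of the type I genes in controls went from -0.28 to 0.03. These changes set arrays of different range against each other, and the time in hyperoxia and the range of the 0 h arrays cannot be told apart.

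Among the genes that fell from 0 to 24 h in both genotypes were Irf1, at -0.85 in controls and -0.89 after deletion, and Isg20, at -0.73 and -1.10. Trim25 fell by 0.62 and 1.07 and Ifih1 by 0.66 and 1.05. Gbp3 fell by 0.59 in controls and by 0.38 in Cebpa-deleted cells. The latter call was kept in 1 of 6 leave-one-out fits, the values being -0.16 without Cebpa-deleted replicate 4 at 24 h (adjusted p = 0.325) and -0.60 without replicate 1 (adjusted p = 0.00172). Iigp1 fell in Cebpa-deleted cells by 1.37 (SE 0.32, adjusted p = 0.000726), while in controls its change of -0.72 was not called. Mx2 rose in controls by 0.46 and Oas2 rose in Cebpa-deleted cells by 0.71. Zbp1 rose in both, by 0.32 and 0.44. In controls the calls of Mx2 and Zbp1 were each kept in 2 of 6 leave-one-out fits, with values from 0.33 to 0.69 and from 0.25 to 0.41, and that of Mx2 gave 0.69 without replicate 2 at 0 h.

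Between 2 and 24 h, where the arrays had a more similar range, controls had 0 genes higher and 3 lower, beside 7.97% and 4.46% of all genes (12.4% either way). These were Irgm1 (-0.74, adjusted p = 0.00807), Cmpk2 (-0.35, adjusted p = 0.0177) and Isg20 (-0.34, adjusted p = 0.0252). In Cebpa-deleted cells 0 were higher and 10 lower, beside 11.8% and 19.6% (31.4%), among them Irgm1 (-0.65), Ddx58 (-0.63), Ifih1 (-0.61), Trim25 (-0.61) and Irf9 (-0.50). Fitting only the arrays compared gave 7 and 6 called genes in controls and Cebpa-deleted cells. Even so, the interquartile ranges at 2 and 24 h did not overlap within a genotype. They were 2.132 to 2.382 and 2.441 to 2.52 in controls, and 2.156 to 2.55 and 1.82 to 2.129 in Cebpa-deleted cells. The part of the array range in these counts was not tested.

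The rest of the pathway was read through lists of its genes, whose counts stand beside 0.858% of all genes called at 0 h, 1.4% at 2 h, and 24.3% higher and 26.4% lower at 24 h. Of 13 measured ligands and receptors 0 were called by limma at 0 and 2 h (0 and 3 at an unadjusted p below 0.05), and 3 rose and 3 fell at 24 h. Those that rose were Ifnl2 (0.66), the interferon γ receptor chain Ifngr1 (0.43) and Ifna4 (0.29), and those that fell were the receptor chains Il10rb (-0.57), Ifnlr1 (-0.45) and Ifnar2 (-0.38). Ifng differed by -0.07, -0.17 and 0.17 and Ifnb1 by 0.24, -0.05 and 0.25 at the 3 times, and neither was called. Of 12 genes of signalling and feedback 0 were called at 0 and 2 h (0 and 5 unadjusted), and at 24 h Stat4 rose by 0.89 and 4 fell, among them Pias1 (-0.57) and Irf2 (-0.43). Of 14 genes that sense nucleic acids or act just below the sensors 0 were called at 0 and 2 h (1 and 2 unadjusted), and 4 rose at 24 h, led by Irf8 (0.81), and 4 fell, led by the kinase Tbk1 (-0.55).

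Further interferon-induced genes, 40 measured of 50 listed, gave 1 higher and 0 lower at 0 h, 7 and 0 at 2 h, 13 and 5 at 24 h, and 13 and 0 on average, beside 0.677%, 1.2%, 24.3% and 7.13% of all genes higher and 0.181%, 0.206%, 26.4% and 9.75% lower. Their medians were 0.07, 0.29, 0.14 and 0.16. Of the other guanylate-binding genes measured, Gbp4, Gbp8 and Gbp9 were among those that rose and Gbp11 was not called by genotype, with Gbp4 at 1.25 at 2 h (adjusted p = 0.0188) and 0.95 at 24 h (adjusted p = 0.00751). Gbp9 rose at 2 h by 0.92 (adjusted p = 0.0113) and Gbp8 by 0.51 (adjusted p = 0.0357), and on average by 0.65 and 0.55. Slfn5, a Schlafen gene, rose at all 3 times, by 1.17, 1.26 and 1.19, and Ifitm3, a membrane protein that blocks virus entry, at 2 h by 0.92. The genes that fell at 24 h were Parp12 (-0.62), Phf11d (-0.60), Eif2ak2 (-0.54), Samd9l (-0.48) and Ifi27 (-0.47). Cxcl10, an interferon-induced chemokine, was not called by genotype at any time, and Cxcl9 rose at 24 h by 0.41 (adjusted p = 0.0169).

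Markers of several cell types were read as well, and their counts stand beside 0.677%, 1.2% and 24.3% of all genes called higher and 26.4% lower at 24 h. The mean of the 16 endothelial markers was 8.14 to 8.41 in controls at 0 h and 9.09 to 9.34 after Cebpa deletion, 8.00 to 8.29 against 8.61 to 9.52 at 2 h, and 8.11 to 8.77 against 8.98 to 9.11 at 24 h. Of these 16 markers 8, 13 and 14 were called higher at the 3 times. The lymphocyte and natural killer cell markers (14 of 15 measured) lay at 6.61 to 6.76 against 6.59 to 7.11, 6.84 to 7.12 against 7.08 to 7.76, and 6.37 to 6.89 against 7.13 to 7.34, with 0, 0 and 6 called higher. The 14 macrophage markers lay at 7.41 to 7.75 against 7.69 to 7.85, 7.35 to 7.74 against 7.54 to 8.13, and 7.33 to 7.61 against 7.40 to 7.68, so they overlapped at each time. The 8 fibroblast and smooth muscle markers lay at 7.41 to 7.61 against 7.73 to 7.80, 7.42 to 7.89 against 7.88 to 8.51, and 7.42 to 7.99 against 8.23 to 8.48, with 0, 1 and 6 called higher. The 7 neutrophil markers were apart at 24 h alone (5.34 to 5.54 against 5.71 to 5.78), and the 3 measured markers of plasmacytoid dendritic cells, a source of type I interferon, were not higher at any time (6.94 to 7.39 against 6.82 to 6.99 at 24 h). The mean of the 11 type II cell markers was lower at 0 h as well (12.98 to 13.04 against 12.89 to 12.90), and of these markers 10 were called lower at 24 h, as were 6 of 8 type I cell markers. No list mean lay near the lowest value of an array (2.178 to 2.889). That value is not a measure of background, so detection of these lists was not tested.

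Array by array, the mean of the 5 Gbp and Irg genes was 6.97, 6.40 and 6.76 in controls at 0 h and 7.10, 7.55 and 7.62 after Cebpa deletion. At 2 h the values were 6.47, 6.77 and 6.40 against 6.95, 7.32 and 7.53, and at 24 h 6.32, 6.29 and 6.07 against 7.08, 6.96 and 6.71. The Cebpa-deleted arrays were above the controls at each time. At 2 h Cebpa-deleted replicate 2 was the lowest of its group both here and in the endothelial mean (8.61, against 9.43 and 9.52). That array also had the highest Cebpa level of its group (9.98, against 8.96 and 9.31). At 0 h the array lowest here, Cebpa-deleted replicate 1, had an endothelial mean of 9.11 beside 9.34 and 9.09. Its Cebpa level was 10.58, beside 10.66 and 10.43. The lowest Cebpa-deleted array here at 24 h, replicate 4, had a Cebpa level of 8.38, beside 8.66 and 8.26. At 24 h control replicate 2 had the highest endothelial mean of the controls (8.77) and a Gbp and Irg mean of 6.29, between those of the other controls. The type I mean ran from 7.31 to 7.43 against 7.35 to 7.44 at 0 h, 7.17 to 7.25 against 7.29 to 7.50 at 2 h and 7.04 to 7.19 against 7.14 to 7.26 at 24 h, apart at 2 h. The part of other cell types, or of the Cebpa level of an array, in the differences was not tested.

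**Figure D4:**
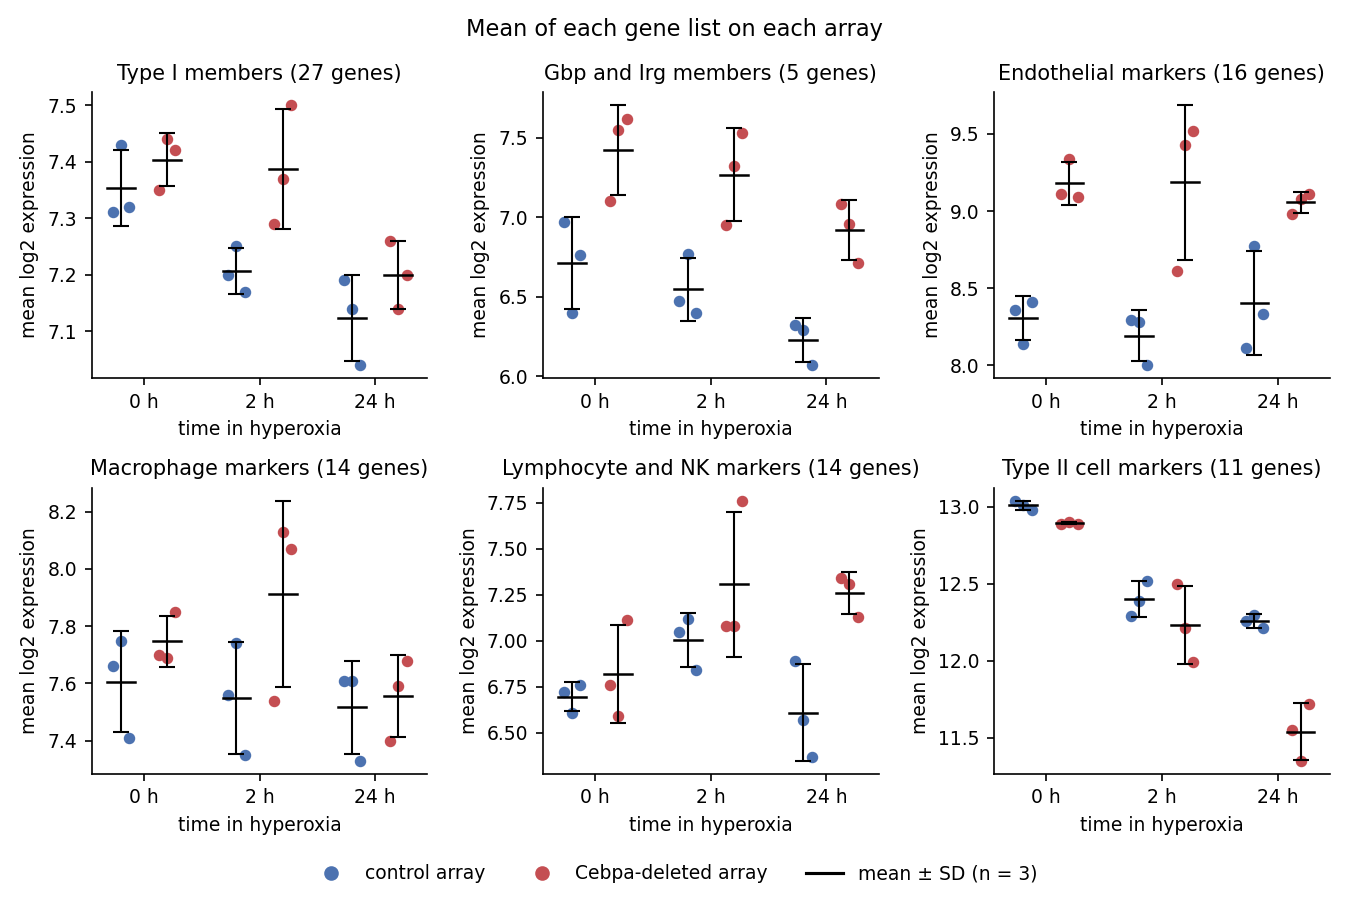
Mean log2 expression of 6 gene lists on each array, by time in hyperoxia in hours, with control arrays in blue, Cebpa-deleted arrays in red and bars for the mean ± SD of 3 arrays; each panel has its own vertical scale. The Gbp and Irg mean and the endothelial mean are higher on the Cebpa-deleted arrays at each time, while the type I mean is apart at 2 h and the type II cell mean is lower at 0 and 24 h.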

How the data were processed

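Total RNA of isolated type II cells was hybridized to 18 arrays, whose deposited values are on the log2 scale. The submitters' processing notes name RMA as the method the authors used. The version, the genome build and which arrays were normalized together are not given in the sources used here. Of 35557 features 21789 had 1 gene symbol, 1621 several and 12147 none, and only the first were used (21698 matched the RefSeq gene table). For the 999 genes with several features the brightest was taken, which left 19938 genes without a filter on low values.

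One model with 6 group means was fitted to all 18 arrays with limma 3.58.1 in R 4.3.3, checked on simulated data. P-values are two-sided. Full statistics are given for genes called by genotype, or for the 3 of smallest p. The members and the lists of genes were chosen with earlier results of these data known. Replicate numbers were checked as pairs: deviations of same-numbered arrays at the same time correlated between -0.24 and 0.0581. No pairing by number was seen, but this check cannot exclude that samples shared a litter or a preparation. With 3 arrays a group, the number of arrays limits the precision. Alternatives were a second quantile normalization, median centring, a replicate block, the upper 60 percent of genes, eBayes with trend and robust settings, only the arrays compared, the interquartile range as a covariate, each array left out, and, chosen after seeing the data, only the 12 arrays at 2 and 24 h.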

Additional observations from a re-analysis of the deposited data

Results flagged for a closer look

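For 5 type I genes the test of the interaction found that the genotype difference was not the same at both times: 2 of 32 members between 0 and 24 h, beside 14.3% of all genes, and 3 of 32 between 2 and 24 h, beside 30.8%, so their share was below that of all genes. Oas2 had a higher difference at 24 h than at 0 h by 0.625, and Oas3 by 0.563. Ddx58, Ifih1 and Trim25, which sense RNA or activate a sensor, had a lower difference at 24 h than at 2 h, by -0.539, -0.554 and -0.592. Dhx58, another RNA sensor, was not called, with means of 5.82 in controls against 6.02 at 2 h and 5.88 against 6.07 at 24 h. Ddx58, Ifih1 and Trim25 had mean levels above 7.028. For all genes above that level the median genotype difference was 0.02 at 2 h and -0.26 at 24 h. After a second quantile normalization Ifih1 was still called (-0.44, adjusted p = 0.0408), and Ddx58 (-0.23, adjusted p = 0.216), Trim25 (-0.29, adjusted p = 0.111), Oas2 (0.47, adjusted p = 0.0938) and Oas3 (0.36, adjusted p = 0.166) were not. Given the range of each array as a covariate, the values of Ddx58, Ifih1 and Trim25 were -0.15, -0.002 and -0.11. No cause was tested.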

How the results depend on the processing

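Of 111 calls of members in 12 comparisons, 110 were kept with the trend and robust settings, 100 with median centring and 59 with a second quantile normalization. The number of members called moved by over 1.5 times in these cases, whose cause was not tested. With quantile normalization it was 0 at 0 h, 5 at 2 h, 7 at 24 h, 9 in Cebpa-deleted cells from 0 to 2 h, and 0 for the 24 against 0 h interaction. With median centring it was 1 and 5 for the 24 against 0 h and the 24 against 2 h interactions. The count on average did not move as far, with 9 higher and 1 lower under both scalings. Whether the replicate numbers pair the samples is not given in the labels. With the replicate block 0 were called at 2 h, 7 on average and 0 for the 24 against 0 h interaction, and no other count moved as far. With the upper 60 percent of genes, which keeps 21 members, it was 5 at 2 h, and from 0 to 2 h 11 in controls and 9 in Cebpa-deleted cells. With only the arrays compared it was 0 at 2 h, 7 and 6 from 2 to 24 h in controls and in Cebpa-deleted cells, and 4 for the 24 against 0 h interaction. With the array range as a covariate it was 10 at 2 h, 0 at 24 h, 4 on average, and 0 for both interactions. Where 0 were called, an unadjusted p below 0.05 gave (higher, then lower) 5 and 1 at 0 h and 2 and 1 for the interaction with quantile normalization, 10 and 0 at 2 h and 2 and 3 for the interaction with the block, and 1 and 1, then 1 and 6, for the interactions with the covariate. In the average Gbp3, Gbp5, Gbp7 and Iigp1 were called under every scaling, the block and the covariate, and Irgm1 was not with the block (0.31, adjusted p = 0.101) or the covariate (0.43, adjusted p = 0.0614).

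Some signs turned. At 24 h by genotype Isg20 was 0.048 after quantile normalization, and in the fit with array range Oasl2 was -0.15, Ifih1 0.060 and Trim25 0.046. From 0 to 2 h in controls quantile normalization gave Isg20 0.11, Irf1 0.047, Stat2 0.064 and Ddx58 0.050, in Cebpa-deleted cells Irf1 0.14 and Stat2 0.059, and from 0 to 24 h Stat2 0.23.

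Leaving out 1 array gave 0 to 2 members at 0 h, 0 to 10 at 2 h, 5 to 11 at 24 h and 8 to 15 on average. From 0 to 2 h, 0 to 24 h and 2 to 24 h it gave 14 to 18, 12 to 16 and 1 to 2 in controls, and 10 to 17, 16 to 19 and 5 to 12 in Cebpa-deleted cells. For the interactions it gave 0 to 5 and 2 to 7. With only the 12 arrays at 2 and 24 h, chosen after seeing the data, 2 were called at 2 h and 10 at 24 h. Signal over background was not used here, so dim genes have no bound.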

Other observations

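In controls the level of Cxcl10, an interferon-induced chemokine, changed by -1.09 between 0 and 2 h (adjusted p = 0.00115) and its change between 0 and 24 h was -1.08 (adjusted p = 0.00159). In Cebpa-deleted cells it fell by 0.69 from 0 to 24 h (adjusted p = 0.0203), while its change of -0.40 from 0 to 2 h was not called. Ifnar1, a chain of the type I interferon receptor, fell from 0 to 24 h by 0.69 in controls, and its change in Cebpa-deleted cells was -0.69. These changes, too, set 0 h arrays against arrays of narrower range.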
